A study of Mus musculus with 8 samples.

Results

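NRF2 antioxidant response genes were examined in whole 4T1.13 mammary tumours with and without knockdown of miR-21. The group holds 10 genes chosen by name, the transcription factor Nfe2l2 (which encodes NRF2), its inhibitor Keap1, and 8 genes that NRF2 is known to activate or that act beside its targets: Gclc, Gclm, Gsr, Gpx4, Txnrd1, Srxn1, Nqo1 and Hmox1. These are 10 of the 27179 gene identifiers in the count table, and all 10 were counted deeply enough to be tested among 14382 genes.

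NRF2 is a transcription factor that is made continuously and degraded continuously. In unstressed cells KEAP1 holds it for ubiquitination by a cullin 3 ligase. Oxidants and electrophiles modify cysteines of KEAP1, so that newly made NRF2 escapes, enters the nucleus with a small MAF partner and binds antioxidant response elements near genes for glutathione synthesis, thioredoxin recycling, quinone reduction and haem breakdown. Because this control acts on the protein, the mRNA level of Nfe2l2 is not a measure of NRF2 activity. In tumours the pathway is known both for protecting cells from oxidative damage and for helping cancer cells survive, and macrophages are known for strong Hmox1 expression.

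Total RNA of 8 tumours was sequenced. 4T1.13 is a metastatic mouse mammary carcinoma line, and each BALB/c mouse received 100000 cells orthotopically, in a mammary fat pad. The 4 miR-21-KD tumours came from cells with the miArrest lentiviral vector, which expresses from an H1 promoter an RNA that binds and sequesters mature miR-21, and the 4 vector control (VC) tumours came from cells with a scrambled sequence in the same kind of vector. Per the labels all tumours were recovered at day 14. The text of the study gives another day, and places the beginning of regression of the miR-21-KD tumours on that day. Each line was a pool of single-cell clones, so differences between the 2 pools and the knockdown cannot be told apart in these tumours. The vector was put into the cancer cells and not into the mice, and its RNA was not measured in any cell type here. The labels name the 4 tumours of a group as separate samples.

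The counts of a tumour totalled 12134849 to 13592695. At this depth a count of 0 allows up to 3 counts, or 0.221 to 0.245 CPM (counts per 1000000 counted reads) depending on the tumour, for counting error only. Mir21a, the gene of the targeted miRNA, had 0 counts in all 8 tumours, and a sequestered miRNA need not fall in amount, so this table holds no check of the knockdown. Vmp1, whose transcript runs into the Mir21a locus, was at 335 to 374 CPM in VC and 345 to 381 CPM in miR-21-KD tumours. Mammary epithelial markers were present in every tumour, with summed levels of 1308 to 2269.9 CPM in VC and 1087 to 2066 CPM in miR-21-KD tumours. Marker sums for other cells differed. The 12 macrophage and monocyte markers summed to 4024 to 6020.3 CPM in VC against 7997 to 12876 CPM in miR-21-KD tumours, the 7 fibroblast markers to 3062 to 8041 against 10460 to 23375 CPM, and the 5 adipocyte markers to 85.2 to 319.8 against 428 to 1124 CPM, with no overlap between groups in any of these 3. Of these lists 8, 5 and 5 genes passed as higher and 0 as lower, where 19.6% of all tested genes were higher and 19.5% lower. The sums of leukocyte, neutrophil, T cell, B cell, endothelial and red blood cell markers overlapped between groups, and 3 of 5, 0 of 6, 5 of 7, 0 of 4, 1 of 6 and 0 of 3 tested genes were higher and 0 lower in edgeR. Of the lists with 0, the neutrophil list had 2 genes at an unadjusted p under 0.05, 2 passing in DESeq2, 1 in limma-voom and 3 with its sample quality weights, and the B cell and red blood cell lists had 0 by each of these. Of the 8 epithelial markers 6 were higher, and Krt18, a luminal keratin, was lower. Krt8 did not pass (log2 fold change -0.88, edgeR adjusted p = 0.087). Krt8 and Krt18 were the most counted of the 8 in VC tumours, with means of 808 and 1022 CPM, against 439 and 459.8 CPM in miR-21-KD tumours. The replicate 4 tumours stood apart in B cell markers, with 141 CPM in the VC and 60.4 CPM in the miR-21-KD library, against 1.76 to 13.1 CPM in the other 6. In such bulk samples, fewer cells of a type and less RNA per cell cannot be told apart, and the part of cell makeup in the results was not tested except where a value is given.

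The miRNA that was sequestered is shown because its seed sets which transcripts it can pair with. Its seed, bases 2 to 8, is in capitals, and it lies at chr11:86584120-86584141 on the minus strand of GRCm38.p6 (RefSeq).
mmu-miR-21a-5p: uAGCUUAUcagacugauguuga
The 7-base match to this seed, ATAAGCT, was not found in the annotated 3′ untranslated regions of any of the 10 genes. It was found in those of 1094 of 13225 tested genes, or 8.27%. The absence says only that these letters are not in the annotated regions of GENCODE vM21.

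Promoters were searched for the core of the antioxidant response element, TGACNNNGC, on both strands, in RefSeq windows of 300 bases (250 before to 50 after the annotated start, GRCm38.p6). The motif was in 4071 of 32851 windows of all genes, or 12.4%. Of the 10 genes, 7 were in the promoter table with 12 windows in all, and Hmox1, Gclc and Gsr were not in it. The motif was present in 4 of the 12 windows, those of Nfe2l2, Srxn1, Gclm and 1 of the 3 windows of Txnrd1. Each is printed on the strand of its gene with 10 bases on either side and the motif in capitals, where the 3 read as GCNNNGTCA are on the opposite strand.
Nfe2l2, chr2:75704885-75704913, minus strand: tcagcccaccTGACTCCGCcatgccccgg
Srxn1, chr2:152105542-152105570, plus strand: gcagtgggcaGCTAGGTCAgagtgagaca
Gclm, chr3:122245413-122245441, plus strand: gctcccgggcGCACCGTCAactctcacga
Txnrd1, chr10:82859104-82859132, plus strand: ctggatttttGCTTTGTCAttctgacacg
Counted from the transcript start of its own RefSeq window, the motif began 240 bases before for Nfe2l2, 134 before for Gclm and 92 before for Txnrd1, and at base 29 after for Srxn1. These starts are at 75704663, 122245557, 82859206 and 152105524 in that order of genes. The starts used for Gclm and Txnrd1 lie inside the spans of those genes given with their values, and that of Txnrd1 is a start downstream of its span's first base. The core can overlap the AP-1 site TGACTCA, and 0 of the 4 stretches held that site. The windows of Keap1, Nqo1 and Gpx4 did not hold these letters. These matches are descriptions of the letters and not measured binding sites.

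Of the 10 genes, 6 passed the test between miR-21-KD and VC tumours, 2 higher (Hmox1 and Gclc) and 4 lower (Nfe2l2, Keap1, Srxn1 and Gsr), at an adjusted p under 0.05 in edgeR's quasi-likelihood test. The largest rise was in Hmox1, which was 2.5-fold higher (log2 fold change 1.32, but 0.68 and not past the threshold without miR-21-KD replicate 3, and past it in 7 of 16 alternatives), and the largest fall in Keap1, which was 1.37-fold lower. Gclm, Nqo1, Txnrd1 and Gpx4 did not pass. Over all tested genes 39.1% passed, with 19.6% higher and 19.5% lower. The median log2 fold change was -0.15 over the 10 genes and -0.01 over all tested genes. The levels did not overlap between groups in 5 of the 10, higher for Gclc and Gclm and lower for Nfe2l2, Keap1 and Gsr. Among all tested genes 35.2% did not overlap, 16.3% higher and 18.9% lower. The number passing depended on the fit and on single tumours. Where the replicate number was used as a block, 3 genes passed, Gclc higher and Nfe2l2 and Keap1 lower. With upper-quartile scaling 5 passed, 3 higher and 2 lower. It was 2 without VC replicate 2, VC replicate 3 or miR-21-KD replicate 4, and 3 without miR-21-KD replicate 1 or miR-21-KD replicate 3.

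**Figure D1:**
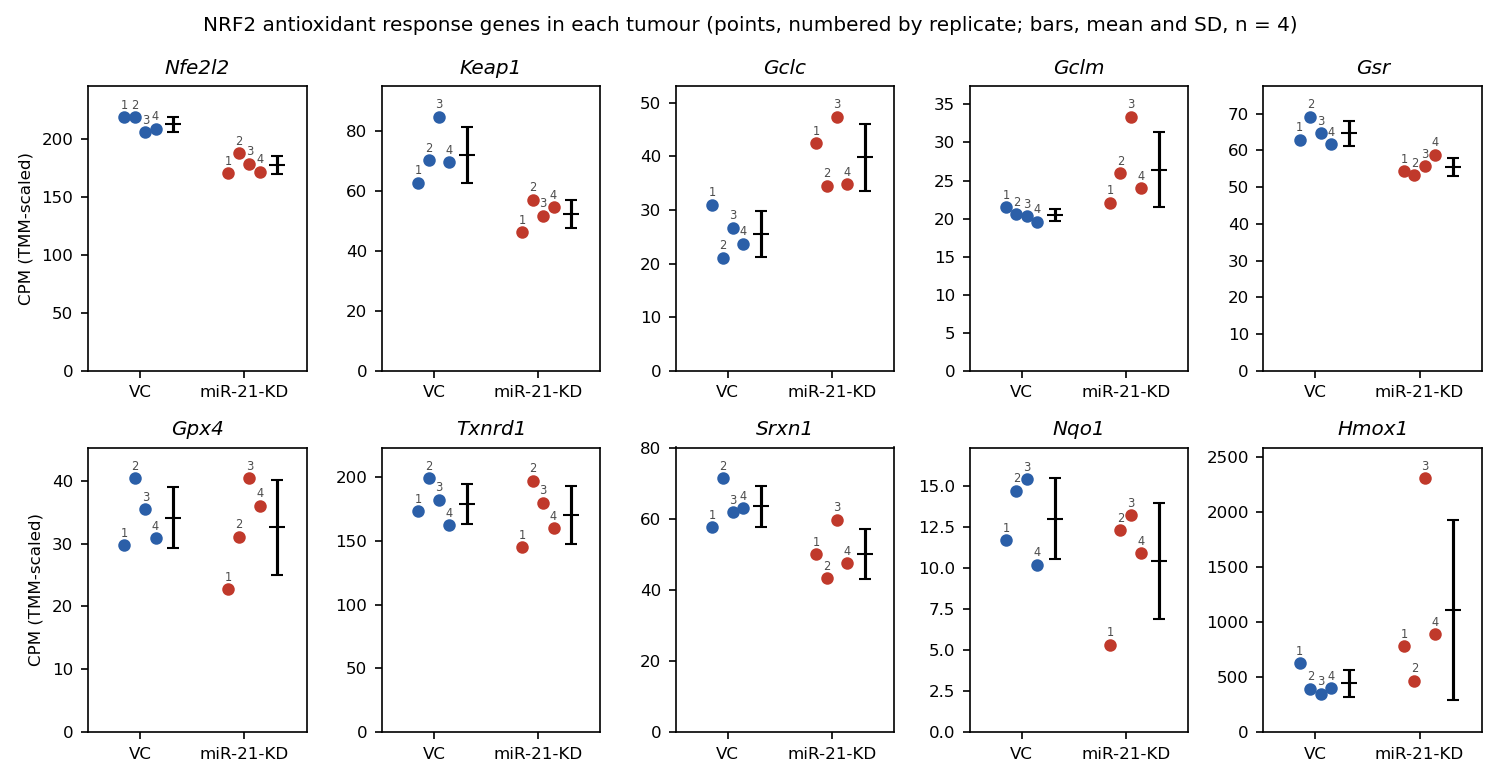
Level of each of the 10 genes in every tumour, in CPM scaled with TMM factors (vertical axes from 0), with VC tumours in blue, miR-21-KD tumours in red and numbers for the replicates; horizontal and vertical bars give the mean and SD of 4 tumours. The miR-21-KD points of Nfe2l2, Keap1 and Gsr lie below all VC points, those of Gclc and Gclm above, and Hmox1 has a single miR-21-KD tumour at 2310.1 CPM.

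Compared per kilobase of exon, Hmox1 was the most abundant of the genes in VC tumours at a mean of 254 CPM per kb. Nfe2l2 followed at 56.1 CPM per kb. A middle group held Txnrd1 at 25.3, Gsr at 23.5, Srxn1 at 22.6, Gpx4 at 19.8 and Keap1 at 15.3 CPM per kb, in which each gene overlapped its neighbour within 1 SD of the mean. Nqo1 at 8.37 and Gclc at 6.8 CPM per kb also overlapped, and Gclm was lowest at 3.26 CPM per kb. In miR-21-KD tumours the means were 636 CPM per kb for Hmox1, 46.9 for Nfe2l2 and 4.2 for Gclm. The mean of Gclc was 10.6 and that of Nqo1 6.7 CPM per kb, which still overlapped within 1 SD.

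Nfe2l2 and Keap1, the factor and its inhibitor, were both lower in miR-21-KD tumours. Nfe2l2 (Entrez 18024, chr2:75675513-75704663, GRCm38) was at 219, 219, 206 and 209 CPM in VC replicates 1 to 4 and at 171, 188, 179 and 172 CPM in miR-21-KD replicates 1 to 4. All miR-21-KD tumours were below all VC tumours, with little spread in either group. The mean fell from 213 ± 6.61 to 178 ± 7.89 CPM (SD, n = 4), a log2 fold change of -0.26 (SE 0.07, edgeR adjusted p = 0.0223). The change was small in size, and the call was lost in 6 of the 8 single omissions, each close to the threshold. It held without VC replicate 4 (edgeR adjusted p = 0.0318) and without miR-21-KD replicate 2 (0.012). The adjusted p was 0.0503, 0.0657 and 0.0526 without VC replicates 1, 2 and 3, and 0.051, 0.0541 and 0.0632 without miR-21-KD replicates 1, 3 and 4, at log2 fold changes of -0.25 to -0.29, within a range of 0.000317 to 0.0657 over 16 alternatives (other tools, scalings and filters, the replicate block and each tumour left out).

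Keap1 (Entrez 50868, chr9:21229730-21239332) was at 62.7, 70.3, 84.8 and 69.6 CPM in the VC tumours and at 46.2, 57.1, 51.8 and 54.5 CPM in the miR-21-KD tumours. The groups did not overlap, and VC replicate 3 was the highest. The mean fell from 71.9 ± 9.29 to 52.4 ± 4.7 CPM (SD, n = 4), a log2 fold change of -0.46 (SE 0.11, edgeR adjusted p = 0.0153). Keap1 passed under all 16 alternatives, with an adjusted p of 0.00234 to 0.0439. Its exons share 206 bases with Gm16754 on the opposite strand, and whether reads were counted by strand is not given in the sources used here.

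The balance between factor and inhibitor was compared as the log2 ratio of Nfe2l2 over Keap1 in each tumour, which does not depend on library scaling. It was 1.8, 1.64, 1.28 and 1.58 in VC and 1.89, 1.72, 1.79 and 1.65 in miR-21-KD tumours. The groups overlapped, and VC replicate 3, with the highest Keap1, had the lowest ratio. The means were 1.57 ± 0.22 and 1.76 ± 0.1 (SD, n = 4), a difference of 0.19 that did not pass an exact two-sided permutation test (p = 0.171, adjusted p = 0.257 over 3 ratios). The smallest p that 4 tumours against 4 allow is 0.0286, so after adjustment over 3 ratios a single ratio could not pass alone. Within the same-numbered pairs the ratio was higher in the miR-21-KD tumour in 4 of 4, by 0.09, 0.08, 0.51 and 0.07, and an exact test of 4 pairs cannot give a p below 0.125 (adjusted p = 0.188).

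Of the glutathione genes, Gclc was higher and Gsr lower in miR-21-KD tumours. Gclc encodes the catalytic subunit of glutamate-cysteine ligase, the rate-limiting enzyme of glutathione synthesis (Entrez 14629, chr9:77754535-77794489). Its levels were 31.0, 21.1, 26.7 and 23.7 CPM in VC and 42.4, 34.5, 47.4 and 34.8 CPM in miR-21-KD tumours. The lowest miR-21-KD tumour was above the highest VC tumour. The mean rose from 25.6 ± 4.29 to 39.8 ± 6.26 CPM (SD, n = 4), which is 1.55-fold, with a log2 fold change of 0.63 (SE 0.15, edgeR adjusted p = 0.0152). Gclc passed under all 16 alternatives, with an adjusted p of 0.0012 to 0.0442, and was the one gene of the 10 that was higher in each of them at that threshold.

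Gclm encodes the modifier subunit of the same ligase (Entrez 14630, chr3:122245487-122267215). It was at 21.5, 20.6, 20.3 and 19.6 CPM in VC and at 22.1, 26.0, 33.4 and 24.0 CPM in miR-21-KD tumours. The groups did not overlap, although VC replicate 1 and miR-21-KD replicate 1 were close, and the spread was wider in the miR-21-KD group. The means were 20.5 ± 0.798 and 26.4 ± 4.93 CPM (SD, n = 4), with a log2 fold change of 0.36 (SE 0.14) that missed the threshold (edgeR adjusted p = 0.0622). Gclm passed in 5 of the 16 alternatives, with an adjusted p of 0.034 in DESeq2, 0.0383 when scaled by the upper quartile, 0.039 when 10 counts were required in each tumour, 0.0184 in limma-voom with sample quality weights and 0.0445 without miR-21-KD replicate 1, within a range of 0.0184 to 0.149. Without miR-21-KD replicate 3 the log2 fold change fell to 0.23 (edgeR adjusted p = 0.149). Its exons share 296 bases with Gm17494 on the opposite strand and 244 bases with Gm6061 on the same strand, so its counts are uncertain to that extent.

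The log2 ratio of the catalytic over the modifier subunit was 0.52, 0.03, 0.4 and 0.27 in VC and 0.94, 0.41, 0.5 and 0.53 in miR-21-KD tumours. The groups overlapped, and both replicate 1 tumours were the highest of their group. The means were 0.31 ± 0.21 and 0.59 ± 0.23 (SD, n = 4), and the difference of 0.29 did not pass the exact permutation test (p = 0.114, adjusted p = 0.257). Within pairs it was higher in the miR-21-KD tumour in 4 of 4, by 0.41, 0.37, 0.11 and 0.26 (adjusted p = 0.188 in the exact paired test, with the same limit).

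Gsr encodes glutathione reductase, which returns oxidised glutathione to its reduced form (Entrez 14782, chr8:33653238-33698162). Its levels were 62.9, 69.2, 64.6 and 61.6 CPM in VC and 54.4, 53.3, 55.7 and 58.8 CPM in miR-21-KD tumours. The groups did not overlap and were narrow. The mean fell from 64.6 ± 3.32 to 55.5 ± 2.37 CPM (SD, n = 4), a log2 fold change of -0.22 (SE 0.07, edgeR adjusted p = 0.0425). This call was lost with the replicate block (adjusted p = 0.0666), when scaled by the upper quartile (0.0926) and when 10 counts were required in each tumour (0.0991), at a log2 fold change of -0.22, -0.17 and -0.17. It was also lost without VC replicates 1, 2 and 3 (0.0655, 0.118 and 0.0957) and without miR-21-KD replicates 1, 2, 3 and 4 (0.0851, 0.0564, 0.0883 and 0.0581), at log2 fold changes of -0.19 to -0.24, in a range of 0.0202 to 0.118 over all 16 alternatives.

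Gpx4 encodes the glutathione peroxidase that reduces lipid peroxides in membranes and restrains ferroptosis (Entrez 625249, chr10:80047166-80056439). It was at 29.7, 40.4, 35.5 and 30.8 CPM in VC and at 22.8, 31.1, 40.4 and 36.0 CPM in miR-21-KD tumours. The groups overlapped almost fully. The means were 34.1 ± 4.87 and 32.6 ± 7.55 CPM (SD, n = 4), with a log2 fold change of -0.07 (SE 0.18, edgeR adjusted p = 0.793), and the sign turned in 3 of the 16 alternatives. The pseudogenes Gpx4-ps1 and Gpx4-ps2 have no entry in the count table, and how reads shared with such copies were assigned is not given in the sources used here.

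Of the thioredoxin genes, Srxn1 was lower and Txnrd1 did not pass. Srxn1 encodes sulfiredoxin, which repairs over-oxidised peroxiredoxins (Entrez 76650, chr2:152105524-152111376). It was at 57.8, 71.6, 61.9 and 63.1 CPM in VC and at 50.1, 43.5, 59.9 and 47.6 CPM in miR-21-KD tumours. Only miR-21-KD replicate 3 reached into the VC range, above VC replicate 1. The mean fell from 63.6 ± 5.77 to 50.3 ± 6.98 CPM (SD, n = 4), a log2 fold change of -0.34 (SE 0.11, edgeR adjusted p = 0.0438). The call was lost with the replicate block (adjusted p = 0.0608), upper-quartile scaling (0.0658), a minimum of 10 counts in each tumour (0.0768) and sample quality weights in limma-voom (0.0567), at log2 fold changes of -0.34, -0.3, -0.29 and -0.27. It was also lost without VC replicates 2, 3 and 4 (0.114, 0.0834 and 0.0634) and without miR-21-KD replicates 1, 2 and 4 (0.0851, 0.0701 and 0.107), at log2 fold changes of -0.28 to -0.36, in a range of 0.0286 to 0.114 over the 16 alternatives.

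Txnrd1 encodes the cytosolic thioredoxin reductase (Entrez 50493, chr10:82833951-82897724). It was at 173, 199, 182 and 162 CPM in VC and at 145, 197, 179.7 and 159.6 CPM in miR-21-KD tumours. In both groups replicate 2 was the highest, and the groups overlapped. The means were 179 ± 15.7 and 170.2 ± 22.9 CPM (SD, n = 4), with a log2 fold change of -0.08 (SE 0.11, edgeR adjusted p = 0.618). The log2 ratio of Gsr over Txnrd1, the reductases of the glutathione and thioredoxin systems, was -1.46, -1.53, -1.5 and -1.4 in VC and -1.41, -1.88, -1.69 and -1.44 in miR-21-KD tumours. It was more variable in the miR-21-KD group and overlapped between groups, with a difference of -0.13 that did not pass the exact permutation test (p = 0.371, adjusted p = 0.371), and within pairs it was higher in the miR-21-KD tumour in 1 of 4 and lower in 3 (exact paired test, adjusted p = 0.375).

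Nqo1, a quinone reductase that is widely used as a readout of NRF2 activity, was low and did not pass (Entrez 18104, chr8:107388225-107403205). It was at 11.7, 14.7, 15.4 and 10.2 CPM in VC and at 5.33, 12.3, 13.2 and 10.9 CPM in miR-21-KD tumours. The groups overlapped apart from miR-21-KD replicate 1, which was the lowest of all 8. The means were 13.0 ± 2.46 and 10.4 ± 3.53 CPM (SD, n = 4), with a log2 fold change of -0.32 (SE 0.28, edgeR adjusted p = 0.378), and it passed in 0 of the 16 alternatives, where the adjusted p was 0.205 to 0.693 and the log2 fold change between -0.46 and -0.1.

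**Figure D2:**
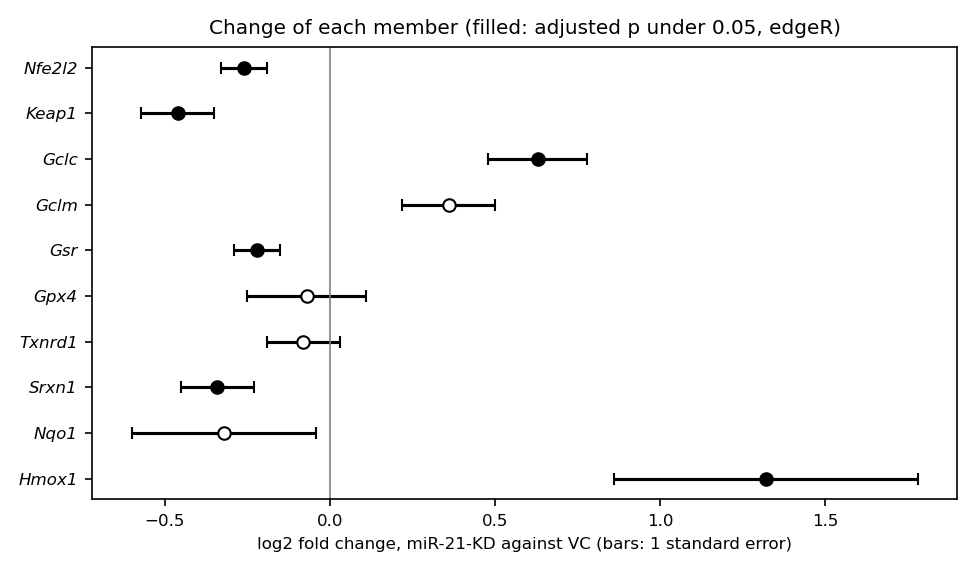
Log2 fold change of each gene in miR-21-KD against VC tumours (horizontal axis) with bars of 1 standard error; filled points passed edgeR's test at an adjusted p under 0.05. Hmox1 at 1.32 has both the largest change and, at 0.46, the widest error, while Nfe2l2 at -0.26 and Gsr at -0.22 have the narrowest, at 0.07.

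Hmox1 was the gene with the largest difference and the largest spread. It encodes haem oxygenase 1, which cleaves haem to biliverdin, iron and carbon monoxide, and it is also a target of BACH1 and other factors (Entrez 15368, chr8:75093618-75100593). Its levels were 628, 398, 351 and 402 CPM in VC and 784, 471, 2310.1 and 889.6 CPM in miR-21-KD tumours. The groups overlapped, since miR-21-KD replicate 2 was below VC replicate 1, and miR-21-KD replicate 3 stood far above all others. The mean rose from 445 ± 124 to 1114 ± 817 CPM (SD, n = 4), a log2 fold change of 1.32 (SE 0.46, edgeR adjusted p = 0.0471). Without miR-21-KD replicate 3 the log2 fold change was 0.68 and did not pass (adjusted p = 0.0942). It did not pass either with the replicate block (1.08, adjusted p = 0.0907), in limma-voom (1.11, 0.0606), with no filter on low counts (1.29, 0.0701), without VC replicates 2, 3 and 4 (adjusted p = 0.108, 0.118 and 0.0854) or without miR-21-KD replicates 1 and 4 (0.0593 and 0.075), where these omissions left the log2 fold change at 1.22 to 1.46. The adjusted p was in a range of 0.00544 to 0.118 over 16 alternatives.

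Markers of macrophages differed between the groups in the same direction as Hmox1, as did those of fibroblasts and adipocytes, whose median log2 fold changes were 1.44 and 2.59. Of the 12 macrophage and monocyte markers 8 passed the test as higher and 0 as lower, with a median log2 fold change of 0.99, and none of the 12 was at 0 in any tumour. Mrc1, the mannose receptor and the most counted of them, rose from 1607 ± 521 to 3806 ± 853 CPM (SD, n = 4, edgeR adjusted p = 0.00928). Cd163, the haemoglobin-haptoglobin scavenger receptor and the next most counted over the 8 tumours, rose from 607 ± 309 to 1935 ± 486 CPM (adjusted p = 0.00994). Markers that did not pass, given after their values were seen, included Lyz2 (lysozyme), which was close to Cd163 in total counts, with means of 994 ± 433 and 1535 ± 644 CPM (adjusted p = 0.212), and Fcgr1 and Msr1, with log2 fold changes of 0.11 and -0.04 (adjusted p = 0.672 and 0.893). Ptprc, which marks all leukocytes, rose from 189 ± 68.2 to 375 ± 75.6 CPM (adjusted p = 0.018). These markers are RNA levels of whole tumours and not counts of cells. By flow cytometry the paper reported more leukocytes but fewer monocytes in miR-21-KD tumours, and the reason for this difference was not tested. Divided by the macrophage marker sum, Hmox1 was at 106, 77.3, 87.3 and 66.7 CPM per 1000 CPM of markers in VC and at 60.9, 58.8, 183 and 79.8 in miR-21-KD tumours. By this ratio the groups overlapped, miR-21-KD replicates 1 and 2 were below all VC tumours and miR-21-KD replicate 3 was above them. The order below replicate 3 depended on the markers used. With Mrc1 and Cd163 left out of the sum, the values were 250, 134, 154 and 89.6 in VC and 113, 141, 455 and 141 in miR-21-KD tumours, where only miR-21-KD replicate 3 lay outside the VC range. The 4 red blood cell markers in the table summed to 31 to 62.4 CPM in VC and 23.7 to 94.4 CPM in miR-21-KD tumours, and 0 of the 3 tested passed.

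**Figure D3:**
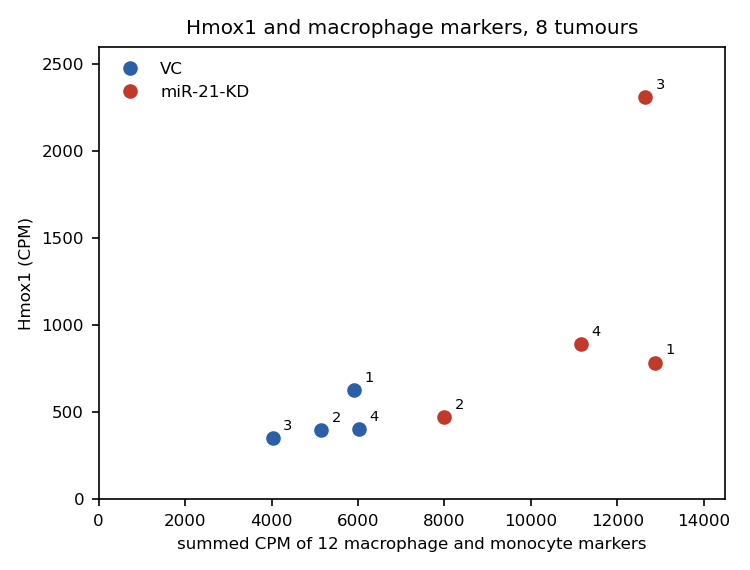
Hmox1 (vertical axis, CPM) against the summed level of 12 macrophage and monocyte markers (horizontal axis, CPM) in the 8 tumours, numbered by replicate. VC tumours (blue) lie at 4024 to 6020.3 CPM of markers and miR-21-KD tumours (red) at 7997 to 12876, and miR-21-KD replicates 1 and 3, close together at 12876 and 12642 CPM of markers, have 784 and 2310.1 CPM of Hmox1.

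The spread among the miR-21-KD tumours was shared by several of the genes. Replicate 3 was the highest of its group for 6 of the 10 genes (Nqo1, Hmox1, Gclc, Gclm, Srxn1 and Gpx4) and the lowest for 0. Replicate 1 was the lowest of its group for 6 (Nfe2l2, Keap1, Nqo1, Gclm, Txnrd1 and Gpx4) and the highest for 0. Among VC tumours, replicate 2 was the highest for 5 genes and replicate 4 the lowest for 4. The genes of a tumour share its library, so these counts are a description. In miR-21-KD tumours the coefficient of variation was 73.4% for Hmox1, 33.8% for Nqo1, 23.2% for Gpx4 and 18.7% for Gclm, against 4.45% for Nfe2l2 and 4.27% for Gsr.

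**Figure D4:**
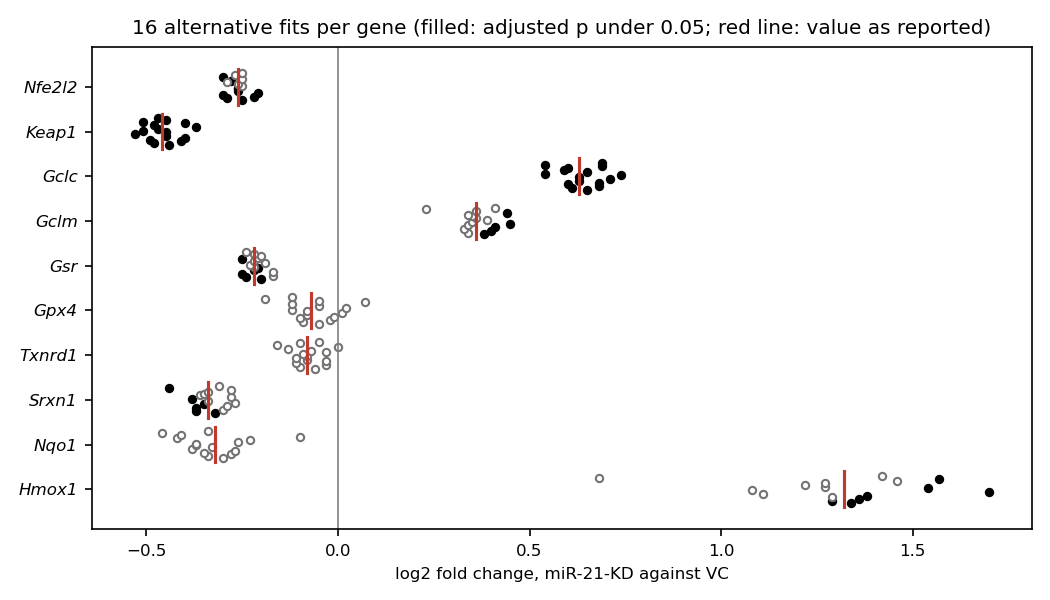
Log2 fold change of each gene (horizontal axis, miR-21-KD against VC) under 16 alternative fits, filled where the adjusted p was under 0.05, with a red line at the value reported. All points of Keap1 and Gclc are filled, 7 of 16 are filled for Hmox1, and the Hmox1 point at 0.68 is the fit without miR-21-KD replicate 3.

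To place these genes in the wider pathway, 90 other genes of NRF2 signalling and its target systems were examined, of which 88 were tested. Of the 88, 24 were higher and 12 lower, or 40.9% in all, beside 39.1% of all tested genes. By direction, 27.3% were higher and 13.6% lower, beside 19.6% and 19.5% of all tested genes, and the difference from them was not tested. Their median log2 fold change was 0.06, and 16 were higher and 9 lower without overlap between groups, beside 16.3% and 18.9% of all tested genes. As shares of the 88 these are 18.2% and 10.2%. The count that passed was 21 without VC replicate 2, 16 without VC replicate 3, 21 without miR-21-KD replicate 3 and 22 without miR-21-KD replicate 4. Gpx2 and Abcc2 had too few reads to be tested.

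Among 13 other regulators of NRF2, 1 was higher and 3 were lower, or 30.8% in all, below the 39.1% of all tested genes. Bach1, a haem-sensitive repressor that competes with NRF2 for the same elements, rose from 79.7 ± 12.5 to 107 ± 14.9 CPM (SD, n = 4), a log2 fold change of 0.43 (SE 0.14, edgeR adjusted p = 0.0385). Btrc, the F-box receptor of a ligase that also degrades NRF2, fell from 32.5 ± 4.01 to 21.1 ± 2.16 CPM (log2 fold change -0.62, SE 0.12, adjusted p = 0.00858). Rbx1, the RING subunit of cullin ligases, fell from 67.6 ± 4.7 to 56.3 ± 2.76 CPM (-0.26, SE 0.08, adjusted p = 0.0299). Of these, Btrc passed in all 16 alternatives. Sqstm1, the autophagy receptor p62 that binds KEAP1, was chosen after its values were seen and fell from 829 ± 91.6 to 563 ± 145 CPM (-0.56, SE 0.19, adjusted p = 0.0473). The small MAF partners, also chosen after their values were seen, did not pass, with log2 fold changes of 0.06 for Mafg, -0.2 for Maff and 0.23 for Mafk (adjusted p = 0.682, 0.478 and 0.113). Bach1 lost its call without VC replicates 2, 3 and 4 or miR-21-KD replicates 1 and 3 (log2 fold changes of 0.44, 0.34, 0.39, 0.35 and 0.39, adjusted p up to 0.106) and with no filter on low counts (0.39). Rbx1 lost it without VC replicates 2, 3 and 4 or miR-21-KD replicates 1 and 3 (-0.26, -0.28, -0.23, -0.26 and -0.24, adjusted p up to 0.079), when scaled by the upper quartile (-0.22) and when 10 counts were required in each tumour (-0.21). Sqstm1 lost it without VC replicates 1, 2 and 3 or miR-21-KD replicates 1, 2 and 4 (-0.55, -0.54, -0.52, -0.41, -0.6 and -0.54, adjusted p up to 0.114), when scaled by the upper quartile (-0.52), with no filter (-0.59) and when 10 counts were required in each tumour (-0.51).

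Among 22 other tested glutathione genes, 9 were higher and 2 lower, or 40.9% and 9.09%, beside 19.6% and 19.5% of all tested genes. Both chains of the cystine importer that supplies glutathione synthesis, chosen after their values were seen, were higher without overlap between groups. Slc7a11, the transport chain, rose from 32.3 ± 4.58 to 44.1 ± 4.71 CPM (SD, n = 4), a log2 fold change of 0.45 (SE 0.13, edgeR adjusted p = 0.025), and Slc3a2, its heavy chain, from 255 ± 28 to 346 ± 41.9 CPM (0.44, SE 0.12, adjusted p = 0.0218). Gss, glutathione synthetase, likewise chosen after its values were seen, did not pass (log2 fold change -0.19, adjusted p = 0.292). Of the 12 glutathione transferases tested, 4 were higher (Mgst1, Gstk1, Gstm1 and Gsta3), 1 was lower (Mgst2) and 7 did not pass. The microsomal transferase Mgst1 rose from 69.4 ± 17.7 to 152 ± 44.3 CPM (1.14, SE 0.25, adjusted p = 0.0119), while Mgst2 fell from 41.8 ± 3.54 to 13.6 ± 6.41 CPM (-1.62, SE 0.33, adjusted p = 0.00979). Gsta3 was at the edge of detection, with 4, 1, 1 and 6 counts in VC and 33, 10, 11 and 29 counts in miR-21-KD tumours. It passed the filter on low counts only through the group in which it was high and is left out where 10 counts are required in each tumour, so its place among the 9 carries no weight. Gstk1 and Gstm1, named after their values were seen, had log2 fold changes of 1.35 (SE 0.35, adjusted p = 0.0182) and 1.02 (SE 0.33, adjusted p = 0.0403). Gstk1 lost its call without VC replicate 3 or miR-21-KD replicate 4 (1.33 and 1.15, adjusted p up to 0.0528), and Gstm1 in 8 of 16 alternatives, without VC replicates 1, 2 and 3 or miR-21-KD replicates 1, 3 and 4 (1.05, 0.91, 0.9, 0.85, 1.07 and 0.86, adjusted p up to 0.106), with no filter (0.98) and in limma-voom (0.95). Gpx8, a glutathione peroxidase of the endoplasmic reticulum, fell from 108 ± 9.95 to 61.6 ± 4.02 CPM (-0.81, SE 0.09, adjusted p = 0.00501). Of the other peroxidases in the list, all described after their values were seen, Gpx1, the most counted, did not pass (0.11, adjusted p = 0.515), Gpx2 was not tested, and Gpx3 and Gpx7 rose without overlap between groups. The secreted Gpx3 went from 120.5 ± 68.7 to 467 ± 234 CPM (1.95, SE 0.48, adjusted p = 0.0164), but did not pass without VC replicate 3 (1.77, adjusted p = 0.0501), and Gpx7 went from 9.2 ± 4.1 to 24.9 ± 7.86 CPM (1.43, SE 0.34, adjusted p = 0.0143). Slc7a11 lost its call without VC replicates 2 and 3 or miR-21-KD replicates 1 and 3 (0.35, 0.45, 0.38 and 0.44, adjusted p up to 0.0632), and Slc3a2 without VC replicates 2 and 3 or miR-21-KD replicates 3 and 4 (0.37, 0.42, 0.37 and 0.42, adjusted p up to 0.0659).

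Among 13 other thioredoxin and peroxiredoxin genes, 3 were higher and 3 lower, or 23.1% each way, beside 19.6% and 19.5%. Txnip, which binds and inhibits thioredoxin, rose from 247 ± 24.1 to 526 ± 177 CPM (SD, n = 4), a log2 fold change of 1.09 (SE 0.24, edgeR adjusted p = 0.0113). Sesn2, a stress-induced sestrin, rose from 13.1 ± 2.13 to 19.6 ± 1.96 CPM (0.58, SE 0.15, adjusted p = 0.0166), and did not pass without VC replicate 3 (0.52, adjusted p = 0.0545). The peroxiredoxins Prdx4, which acts in the endoplasmic reticulum, and Prdx2, which acts in the cytosol, both fell. Prdx4 went from 120.4 ± 14.9 to 69.5 ± 4.81 CPM (-0.79, SE 0.1, adjusted p = 0.00501) and Prdx2 from 208 ± 20.5 to 142 ± 18.6 CPM (-0.55, SE 0.12, adjusted p = 0.0114). Thioredoxin itself, Txn1, chosen after its values were seen, did not pass (-0.21, adjusted p = 0.149). Txnip, Prdx4 and Prdx2 passed in all 16 alternatives.

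Of 7 genes that supply NADPH, 1 was higher and 1 lower, or 28.6% in all, beside 39.1% of all tested genes. Idh1, the cytosolic isocitrate dehydrogenase, fell from 638 ± 165 to 223 ± 52 CPM (SD, n = 4), a log2 fold change of -1.52 (SE 0.23, edgeR adjusted p = 0.00571), in all 16 alternatives. Taldo1, transaldolase of the pentose phosphate pathway, rose from 118 ± 15.9 to 166 ± 23 CPM (0.5, SE 0.13, adjusted p = 0.0187), and did not pass without VC replicate 2 (0.42, adjusted p = 0.0557). G6pdx, which opens that pathway, was chosen after its values were seen and did not pass (-0.21, adjusted p = 0.0936).

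Among 22 other tested detoxification genes, 7 were higher and 2 lower, or 31.8% and 9.09%, beside 19.6% and 19.5% of all tested genes. The superoxide dismutases went opposite ways. Mitochondrial Sod2 rose from 87.3 ± 12.1 to 139 ± 4.72 CPM (SD, n = 4), a log2 fold change of 0.67 (SE 0.1, edgeR adjusted p = 0.00571), and cytosolic Sod1 fell from 171 ± 8.53 to 131 ± 11.9 CPM (-0.38, SE 0.09, adjusted p = 0.0133). The carbonyl reductase Cbr3 rose from 5.91 ± 2.06 to 19.6 ± 4.96 CPM (1.72, SE 0.29, adjusted p = 0.00641). The aldehyde oxidase Aox1 fell from 51.8 ± 14 to 30.1 ± 6.24 CPM (-0.78, SE 0.22, adjusted p = 0.0228), and lost its call without VC replicates 2 and 3 or miR-21-KD replicate 4 (-0.59, -0.79 and -0.8, adjusted p up to 0.0554). Sod2, Sod1 and Cbr3 passed in all 16 alternatives.

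Among 11 other genes of haem and iron handling, which act beside Hmox1, 3 were higher and 1 lower, or 36.4% in all, near the 39.1% of all tested genes. Blvrb, a biliverdin reductase, rose from 31.7 ± 6.77 to 55.2 ± 12.4 CPM (SD, n = 4), a log2 fold change of 0.8 (SE 0.2, edgeR adjusted p = 0.0161), and did not pass without VC replicate 3 (0.74, adjusted p = 0.0522). Slc48a1, a haem transporter, rose from 149 ± 9.35 to 190.3 ± 23.5 CPM (0.35, SE 0.11, adjusted p = 0.0298). It lost its call without VC replicates 1, 2 and 3 or miR-21-KD replicates 1, 3 and 4 (0.34, 0.32, 0.35, 0.34, 0.32 and 0.31, adjusted p up to 0.0873) and with no filter on low counts (0.32). Slc40a1, the iron exporter ferroportin, fell from 44.5 ± 28.8 to 12.5 ± 4.16 CPM (-1.83, SE 0.49, adjusted p = 0.0205). The VC tumours differed widely for Slc40a1, and the call was lost with the replicate block (-1.63), in limma-voom (-1.61) and without VC replicate 2 or miR-21-KD replicates 3 and 4 (-1.41, -1.86 and -1.78, adjusted p up to 0.0638).

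**Figure D5:**
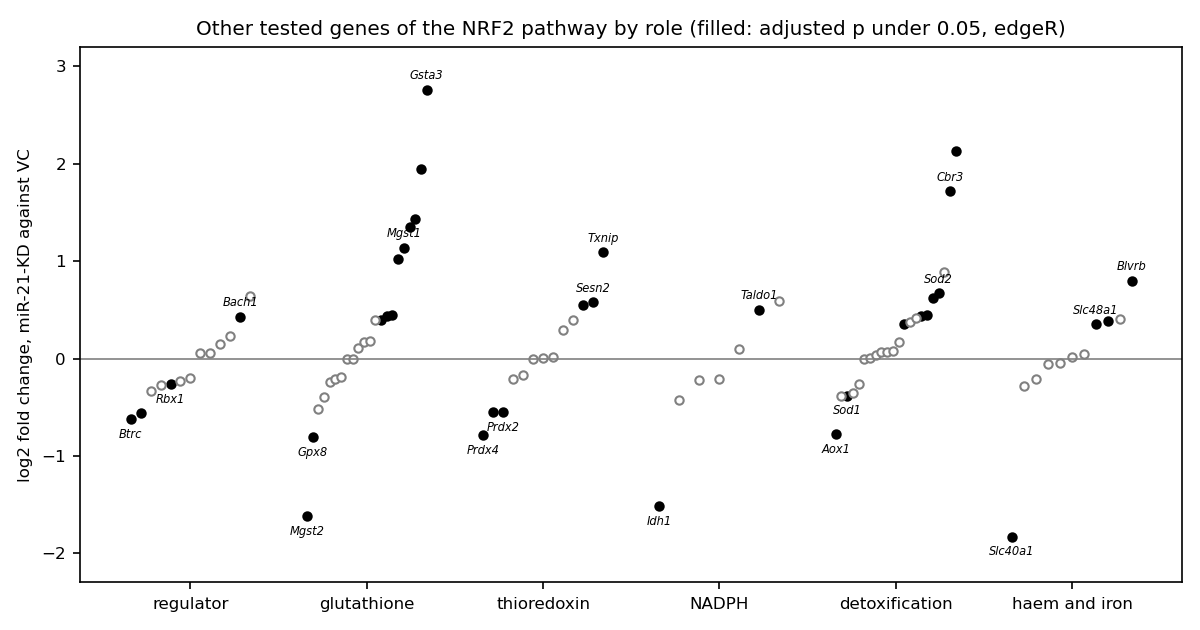
Log2 fold change (vertical axis, miR-21-KD against VC) of the 88 other tested genes of the NRF2 pathway, ordered within 6 roles (horizontal axis); filled points passed edgeR's test at an adjusted p under 0.05 and the genes named by rule are labelled. Filled points lie on both sides of 0 in each role, from -1.83 for Slc40a1 to a fitted 2.76 for Gsta3, which rests on few counts.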

How the data were processed

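RNA sequencing counts of 8 whole tumours (4 VC, 4 miR-21-KD) were used. The authors deposited raw, unnormalized read counts for Entrez gene identifiers, and the 8 columns were assigned to tumours by their labels. The submitters' processing notes name mm10, Subread, featureCounts, edgeR and limma, without versions or roles, and the strand setting is not given in the sources used here. Symbols and positions came from GRCm38.p6 identifiers, which matched 25275 of 27179, and exons and untranslated regions from GENCODE vM21.

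Genes were kept by filterByExpr with a minimum count of 10 and a minimum total of 15, so that 14382 genes holding 99.852% of counts remained. TMM-scaled libraries were tested in R 4.3.3 with edgeR 4.0.16 (robust quasi-likelihood F test, no covariate), and p-values were adjusted over all tested genes by the method of Benjamini and Hochberg, at a threshold of 0.05. This test gives no standard error, so the SE printed is the absolute log2 fold change over the square root of F. CPM are per effective library size. Log2 ratios used log2 CPM with a prior count of 2 (0.5 as an alternative). Tumours of a group differed by more than sampling noise (chi-square per degree of freedom 13.4 to 75.7).

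The alternatives were DESeq2 1.42.0, scaling by the upper quartile or by library size alone, omission of the filter, a minimum of 10 counts in each tumour, limma-voom (limma 3.58.1) with and without sample quality weights, a replicate block, and each tumour left out. After removal of group means, same-numbered tumours correlated at 0.272, 0.421, 0.175 and 0.376, against a mean of -0.105 for other combinations. Removing group means ties that mean to the same-numbered values, so it is not an independent reference. The shared numbers in the labels were therefore taken as a possible pairing only. The main test does not use them, and blocked values are given where they change a call.

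All 10 genes were named, with up to 2 rises and 2 falls of smallest adjusted p per role among the other 90 pathway genes, Ptprc, and the 2 most counted macrophage markers. Krt8, Krt18 and the genes said to be so in the text were chosen after their values were seen. The members and lists were chosen with earlier results of these data known. The labels give no separate cultures or animals for the tumours beyond their numbers, so p-values measure the spread between these samples.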

Additional observations from a re-analysis of the deposited data

How the results depend on the processing

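The number of the 10 genes past the threshold was 6, and 5 to 7 with DESeq2, the scalings, the filters and limma-voom. With the replicate block it was 3, and leaving out single tumours gave 2 to 4. The same omissions gave 2936 (without VC replicate 3) to 6840 (without miR-21-KD replicate 2) of all tested genes against 5626, and 16 to 42 of the other pathway genes against 36. Without VC replicate 2, miR-21-KD replicate 3 and miR-21-KD replicate 4, 3290, 3750 and 3366 of all genes passed. Fewer tumours were fitted there, and the cause of the unequal losses was not tested. The block gave 6485 of all genes and 40 of the other pathway genes, and the other tools, scalings and filters gave 5112 to 8179 and 29 to 53, the highest of both in limma-voom with sample quality weights (33 of the 53 higher). Keap1 and Gclc passed throughout. Gpx4, not called, turned to 0.01 with sample quality weights, 0.02 without VC replicate 2 and 0.07 without miR-21-KD replicate 1, in a range of -0.19 to 0.07 over single omissions, and Mafg, not called, to -0.01 without VC replicate 4, in a range of -0.01 to 0.12. The 3 log2 ratios did not pass under any alternative. As paired differences they could not pass, since 4 pairs allow no p below 0.125, and with 3 tumours against 4 the smallest p is 0.0571. The block changed no call of the members other than those of Hmox1, Srxn1 and Gsr, and of the named pathway genes only that of Slc40a1. For single marker genes no values under the alternatives are given. Counts of markers passing in DESeq2 and the limma-voom fits are given only for the neutrophil, B cell and red blood cell lists. The fits of named pathway genes under the alternatives and the ratio of Hmox1 to macrophage markers were added after seeing the data. Depth limited Gsta3, Gpx2 and Abcc2, which had few reads.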
